A study of Mus musculus with 8 samples.

Results

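The HoxA cluster is a row of homeobox genes on mouse chromosome 6 that are transcribed from the same strand, and 8 of its genes are described here: Hoxa2, Hoxa3, Hoxa4, Hoxa5, Hoxa6, Hoxa7, Hoxa9 and Hoxa10. They were taken by name from the 55421 gene identifiers of the deposited table and are described in the order in which they lie along the chromosome. RNA came from the vagal region of mouse embryos, the stretch bounded by somites 1 and 7, dissected at embryonic day 9.5. In the mutant group both copies of Rdh10 carried the trex allele, and in the other group the embryos were wild type. Each group had 4 libraries, named trex 1 to 4 and wt 1 to 4 after the replicate label of each sample; sample titles count wt libraries onward from 5 to 8. Rdh10 oxidises retinol to retinal in the first step of retinoic acid synthesis, and trex is a loss-of-function allele in the whole embryo, so no single cell type is targeted. The comparison asks how transcript levels differ when this source of retinoic acid is impaired. The labels name no strain, sex, litter or number of embryos per library, and p-values therefore reflect only how far these libraries scatter, which may be technical.

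Hox genes encode transcription factors that give cells their position along the head-to-tail axis. Within a cluster, genes at the 3′ end are switched on first and reach furthest towards the head, and genes nearer the 5′ end start later and further towards the tail. The 3′ genes are classic targets of retinoic acid, acting through its nuclear receptors, while Cdx, Wnt and Fgf signals from the tail bud are known to switch on the central and 5′ genes. The vagal region spans the hindbrain, the first somites and the adjacent pharyngeal arches, heart and gut tube, where 3′ genes are normally active.

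In the mutant libraries Hoxa4 was lower, Hoxa7 and Hoxa9 were higher, and Hoxa2, Hoxa3, Hoxa5 and Hoxa6 did not pass the test (Hoxa6 with a 2.6-fold higher mean in trex). Hoxa4 fell by 0.92 on the log2(TPM + 1) scale, from a mean of 74.8 to 39.0 TPM (a transcript level corrected for gene length and library total). Hoxa7 had a mean of 26.6 TPM in trex and 4.97 TPM in wt, a 5.35-fold difference. Hoxa9 had 6.65 TPM in trex and 0.948 TPM in wt, a 7.01-fold difference. Hoxa10, the next gene after Hoxa9, had 0.084 TPM in trex and 0.933 TPM in wt, below the level at which genes were tested.

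Each tested gene had a mean of at least 1 TPM over the 8 libraries, which 7 of the 8 HoxA genes reached, and the test was limma with Benjamini-Hochberg adjustment over 15717 genes. Of these 7, 2 were higher in trex, 1 was lower and 4 were not called at an adjusted p below 0.05. Hoxa9, called higher, reached the tested level only through its trex mean (6.65 TPM, against 0.948 TPM in wt). Hoxa10 had a similar wt mean (0.933 TPM) but was low in trex and was not tested. The place of Hoxa9 in these counts thus depended on the group where it was high. Over all tested genes 8.71% were called, 4.94% higher and 3.77% lower. In 3 of the 7 HoxA genes no trex library overlapped a wt library, against 21.8% of all tested genes. The median log2 difference of the 7 was -0.01, and that of all tested genes was 0.04. The number of genes called over the whole table was 1369, and leaving out one library moved it to 2911 (without trex 2), 576 (without trex 3), 369 (without trex 4), 466 (without wt 1), 201 (without wt 2), 403 (without wt 3) or 606 (without wt 4). In all of these between 2 and 3 HoxA genes were called.

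**Figure D1:**
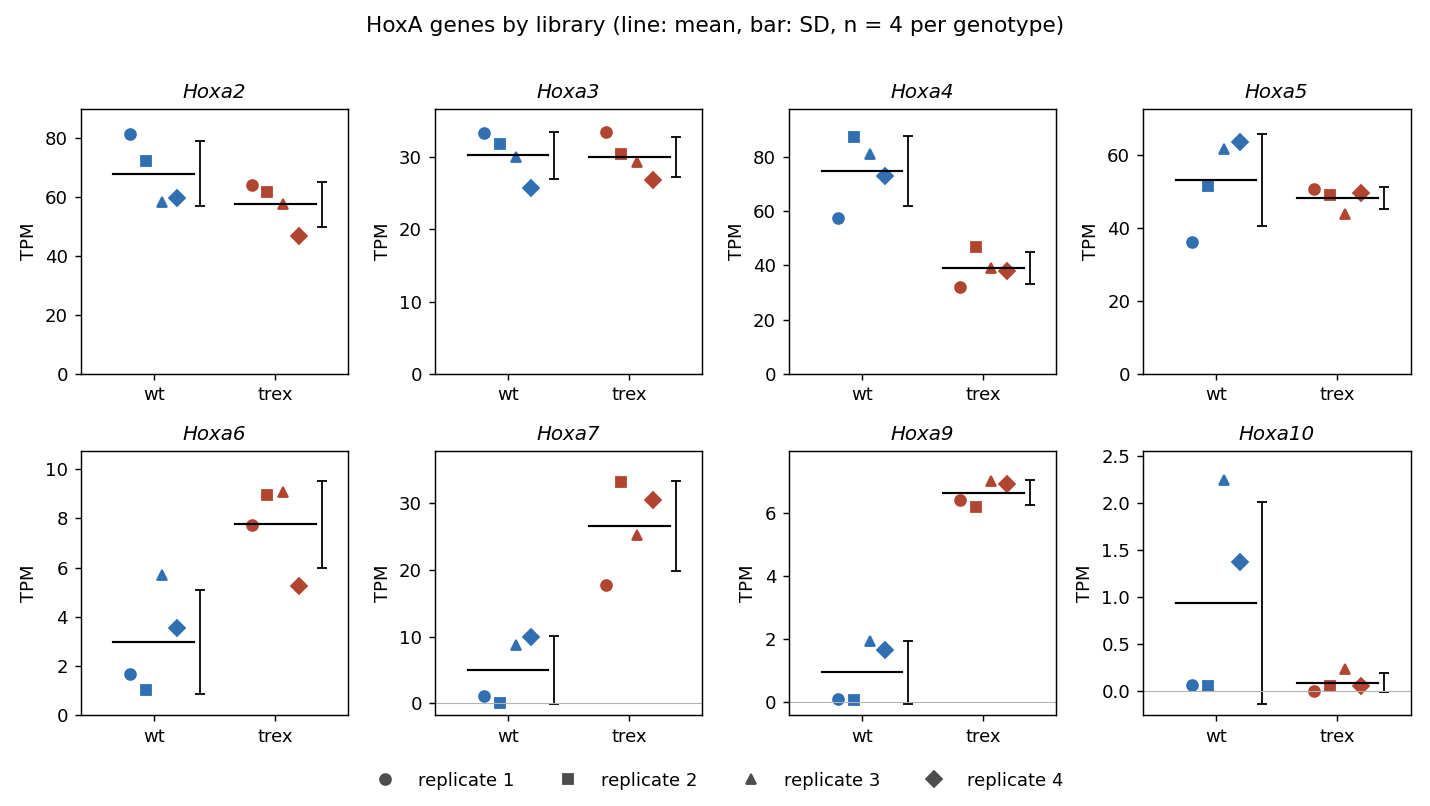
TPM of each HoxA gene in each of the 8 libraries, 1 panel per gene with its own linear axis, with points for libraries, lines for group means and bars for SD. Hoxa4 sits lower in all 4 trex libraries, Hoxa7 and Hoxa9 sit higher, and the wt points of Hoxa6 to Hoxa10 fall into a low pair and a higher pair.

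Stretches from the 250 bases before the transcription starts of 5 of the genes are shown because these genes stand on both sides of the points where levels differ most: Hoxa5 beside Hoxa6 and Hoxa7, and Hoxa9 beside Hoxa10. They are RefSeq sequences of GRCm38.p6, the assembly of the mm10 build, read 5′ to 3′ on the minus strand, on which all these genes lie. The promoter table used here matched 7 of the 8 HoxA genes. It had no entry for Hoxa4, the gene called lower, so no window of Hoxa4 was read. Only the longest run of bases outside annotated exons is shown for each window. The Hoxa6 stretch therefore stops 51 bases and the Hoxa7 stretch 139 bases before the start. In the Hoxa7 window 78 of the 250 bases lie in exons, and some bases outside exons are left out too. Capitals mark TTTAT, the core bound by Cdx factors, on either strand.
Hoxa5, chr6:52204588-52204837: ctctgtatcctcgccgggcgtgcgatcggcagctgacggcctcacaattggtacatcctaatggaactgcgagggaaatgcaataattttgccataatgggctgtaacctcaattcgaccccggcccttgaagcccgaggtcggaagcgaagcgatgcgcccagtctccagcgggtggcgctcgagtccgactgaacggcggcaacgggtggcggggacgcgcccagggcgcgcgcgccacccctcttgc
Hoxa6, chr6:52208723-52208922: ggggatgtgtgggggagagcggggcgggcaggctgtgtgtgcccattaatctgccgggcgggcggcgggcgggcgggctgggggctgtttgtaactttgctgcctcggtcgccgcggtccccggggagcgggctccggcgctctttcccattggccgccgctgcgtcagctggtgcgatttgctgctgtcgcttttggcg
Hoxa7, chr6:52218712-52218823: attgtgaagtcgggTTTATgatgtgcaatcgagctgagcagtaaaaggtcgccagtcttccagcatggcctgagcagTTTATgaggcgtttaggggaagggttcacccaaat
Hoxa9, chr6:52227371-52227620: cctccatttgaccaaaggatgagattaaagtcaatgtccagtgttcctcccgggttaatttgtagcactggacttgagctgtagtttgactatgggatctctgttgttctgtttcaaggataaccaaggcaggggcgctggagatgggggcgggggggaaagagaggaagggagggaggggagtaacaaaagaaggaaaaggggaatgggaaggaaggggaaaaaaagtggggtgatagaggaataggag
Hoxa10, chr6:52240855-52241104: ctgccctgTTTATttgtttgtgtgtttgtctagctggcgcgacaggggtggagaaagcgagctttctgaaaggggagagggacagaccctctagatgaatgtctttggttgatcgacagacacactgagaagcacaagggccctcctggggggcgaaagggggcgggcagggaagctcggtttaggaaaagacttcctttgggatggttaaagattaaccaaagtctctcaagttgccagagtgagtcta

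In the 250 bases before each start, TTTAT or its complement was found before Hoxa2 (160 bases before the start) and before Hoxa7 (236 and 173 bases). It was also found before the first start of Hoxa10 (242 bases) and before its second start (160 bases). No TTTAT was found in these windows of Hoxa3, Hoxa5, Hoxa6 or Hoxa9. Of all 32841 mouse promoter windows of this length in the table, 37.3% hold it. The TATA box TATAAA was found, among the windows of the matched HoxA genes, only before the second start of Hoxa10, on the opposite strand and overlapping a TTTAT, and 12.4% of all windows hold it. AGGTCA, the half-site bound by retinoic acid receptors, was in none of the windows of the matched HoxA genes, and 14.0% of all windows hold it. Hoxa4 had no window to search for any of these motifs. The Hoxa5 and Hoxa6 windows held 28 and 24 CG pairs, those of Hoxa7 and Hoxa9 held 7 and 3, and the median of all windows was 6. The Hoxa2 window held 6, that of Hoxa3 held 18, and those of the first and second Hoxa10 starts held 7 and 20. Among the matched genes, which leave out Hoxa4, CG pairs thus did not follow the calls. The Hoxa7 and Hoxa9 windows lie inside the annotated gene bodies of these genes.

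Hoxa2, which sets the identity of hindbrain segments and of the second pharyngeal arch, lies at chr6:52162417-52164831. It had 63.9, 61.5, 57.5 and 46.6 TPM in trex 1 to 4 and 81.3, 72.0, 58.2 and 59.7 TPM in wt 1 to 4. The highest values were in wt 1 and wt 2, and the ranges overlap. The log2 difference was -0.23 (95% interval -0.53 to 0.06, adjusted p = 0.26).

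Hoxa3, needed for the third pharyngeal arch, thymus and parathyroid, lies at chr6:52169062-52213336 and its annotated gene body contains Hoxa4, Hoxa5 and Hoxa6. It had 33.5, 30.4, 29.4 and 26.9 TPM in trex 1 to 4 and 33.4, 31.9, 30.0 and 25.8 TPM in wt 1 to 4. The groups covered nearly the same range, and the log2 difference was -0.01 (95% interval -0.22 to 0.21, adjusted p = 0.964).

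Hoxa4, which patterns cervical vertebrae, lies at chr6:52189671-52191753. It had 32.2, 46.7, 39.0 and 37.9 TPM in trex 1 to 4 and 57.5, 87.3, 81.3 and 72.9 TPM in wt 1 to 4. Every trex library was below every wt library. The wt mean was 1.92 times the trex mean (74.8 ± 12.9 and 39.0 ± 5.95 TPM, SD, n = 4 each), and the log2 difference of -0.92 had an SE of 0.14 (limma adjusted p = 0.0121). An exact permutation test of the group means gave p = 0.0286, the smallest possible with 4 against 4.

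Hoxa5, which acts in cervical and upper thoracic vertebrae, lung and diaphragm, lies at chr6:52201754-52204587. It had 50.6, 49.0, 44.0 and 49.5 TPM in trex 1 to 4 and 36.1, 51.6, 61.6 and 63.6 TPM in wt 1 to 4. The trex libraries lay close together inside the wider wt range, which began with wt 1 as the lowest of all 8. The log2 difference was -0.11 (95% interval -0.47 to 0.26, adjusted p = 0.679).

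Side by side, Hoxa5 and Hoxa4 changed their order of level. The ratio of Hoxa5 to Hoxa4 in TPM was 1.57, 1.05, 1.13 and 1.3 in trex 1 to 4 and 0.628, 0.591, 0.757 and 0.873 in wt 1 to 4. Hoxa5 thus exceeded Hoxa4 in every trex library and in no wt library.

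Hoxa6, a gene of the cervical to thoracic transition, lies at chr6:52206288-52208722. It had 7.74, 8.95, 9.06 and 5.26 TPM in trex 1 to 4 and 1.68, 1.01, 5.68 and 3.54 TPM in wt 1 to 4. The trex values were mostly higher, but trex 4 was below wt 3. The trex mean of 7.75 ± 1.76 TPM was 2.6 times the wt mean of 2.98 ± 2.1 TPM (SD, n = 4 each), and the log2 difference of 1.27 (95% interval 0.45 to 2.08) missed the threshold at a limma adjusted p of 0.0619. Hoxa6 passed in 2 of 23 alternatives: without wt 3 (adjusted p = 0.0419) and with libraries weighted by their fit (adjusted p = 0.0151). The weighted fit called 5524 genes. In the remaining 21 alternatives Hoxa6 was not called, with adjusted p up to 0.235 (limma with sex as a covariate).

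Hoxa7, which acts in thoracic vertebrae, lies at chr6:52214491-52221854. It had 17.8, 33.1, 25.2 and 30.4 TPM in trex 1 to 4 and 1.09, 0.123, 8.76 and 9.93 TPM in wt 1 to 4. The lowest trex library was above the highest wt library, while wt 1 and wt 2 were far below wt 3 and wt 4. In recovered reads, wt 2 held 2 and wt 4 held 166, while the trex libraries held between 295 and 547. The log2 difference was 2.76 (SE 0.7, limma adjusted p = 0.0449), just inside the threshold. The call was lost when any one library but wt 4 was left out, with adjusted p between 0.0407 and 0.108 over these 8 fits, and the direction was the same in all of them.

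Hoxa9, a gene of thoracic and lumbar levels, lies at chr6:52223100-52231089. It had 6.43, 6.2, 7.03 and 6.93 TPM in trex 1 to 4 and 0.0989, 0.0632, 1.96 and 1.67 TPM in wt 1 to 4. All trex libraries were above all wt libraries and nearly equal to each other. Its coefficient of variation was 5.98% in trex and 106% in wt. The means were 6.65 ± 0.397 and 0.948 ± 1.01 TPM (SD, n = 4 each), with a log2 difference of 2.13 (SE 0.35, limma adjusted p = 0.0126). Leaving out any one library kept the call, with adjusted p between 0.0133 and 0.0448.

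Hoxa10, which patterns lumbar vertebrae, lies at chr6:52231197-52240854. It had 0, 0.0531, 0.231 and 0.0521 TPM in trex 1 to 4 and 0.0563, 0.0539, 2.25 and 1.37 TPM in wt 1 to 4. The only values above 1 TPM were in wt 3 and wt 4, with 43 and 26 recovered reads, and every other library held between 0 and 4. A count of 0 in trex 1 allows up to 3 reads, which is 0.159 TPM. The groups overlap, and an exact permutation test of the means gave p = 0.171.

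Along the chromosome, the trex libraries thus had a step down between Hoxa9 and Hoxa10 that wt 3 and wt 4 did not have. In reads, Hoxa9 held 207, 199, 208 and 227 in trex 1 to 4, beside 0, 1, 4 and 1 for Hoxa10. In wt 3 and wt 4 Hoxa9 held 64 and 54 reads beside 43 and 26 for Hoxa10. Per length, the ratio of Hoxa9 to Hoxa10 was 0.872 in wt 3 (95% interval 0.583 to 1.32, exact Clopper-Pearson, counting error only) and 1.22 in wt 4 (0.749 to 2.02). It was 30.5 in trex 3 (11.7 to 113), and with a single Hoxa10 read it was 117 in trex 2 (20.7 to 4630) and 133 in trex 4 (23.6 to 5280). In trex 1 the ratio was 40.4 with Hoxa10 set at its limit of 3 reads, and the exact interval started at 32.6. In wt 1 and wt 2 both genes held at most 3 reads, and their intervals reach from below 1 to above the value of trex 3.

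**Figure D2:**
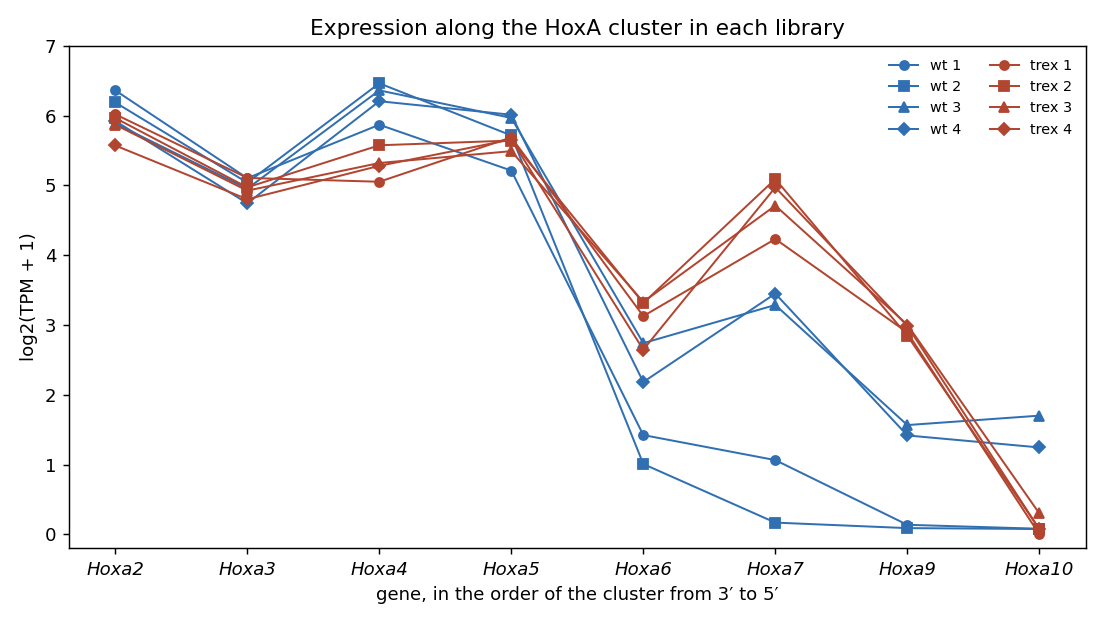
Level of the HoxA genes as log2(TPM + 1), in cluster order from 3′ to 5′, 1 line per library. Lines of both groups run close together at Hoxa2 and Hoxa3 and part at Hoxa4; from Hoxa6 to Hoxa9 the trex lines lie above the wt lines apart from Hoxa6 in trex 4 and wt 3, and at Hoxa10 wt 3 and wt 4 are the highest.

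The order of mean levels in wt was Hoxa4, Hoxa2, Hoxa5, Hoxa3, Hoxa7, Hoxa6, Hoxa9 and Hoxa10. In that order, Hoxa4 and Hoxa2, Hoxa2 and Hoxa5, and every neighbouring pair from Hoxa7 to Hoxa10 had overlapping ranges of mean ± SD. In trex the order was Hoxa2, Hoxa5, Hoxa4, Hoxa3, Hoxa7, Hoxa6, Hoxa9 and Hoxa10. There Hoxa2 and Hoxa5, Hoxa3 and Hoxa7, and Hoxa6 and Hoxa9 had overlapping ranges.

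Summed over the 8 genes, HoxA transcripts came to 216 ± 13.9 TPM in trex, beside 236 ± 17.1 TPM in wt (SD, n = 4 each). Of this sum, Hoxa6 to Hoxa10 made up 15.1, 20.5, 19.7 and 21.0% in trex 1 to 4 and 1.39, 0.512, 7.47 and 6.92% in wt 1 to 4. Hoxa4 alone made up 18.0 ± 1.98% in trex and 31.5 ± 3.59% in wt, and Hoxa5 had the same mean share, 22.4%, in both groups. The sum therefore differed less than its makeup did.

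**Figure D3:**
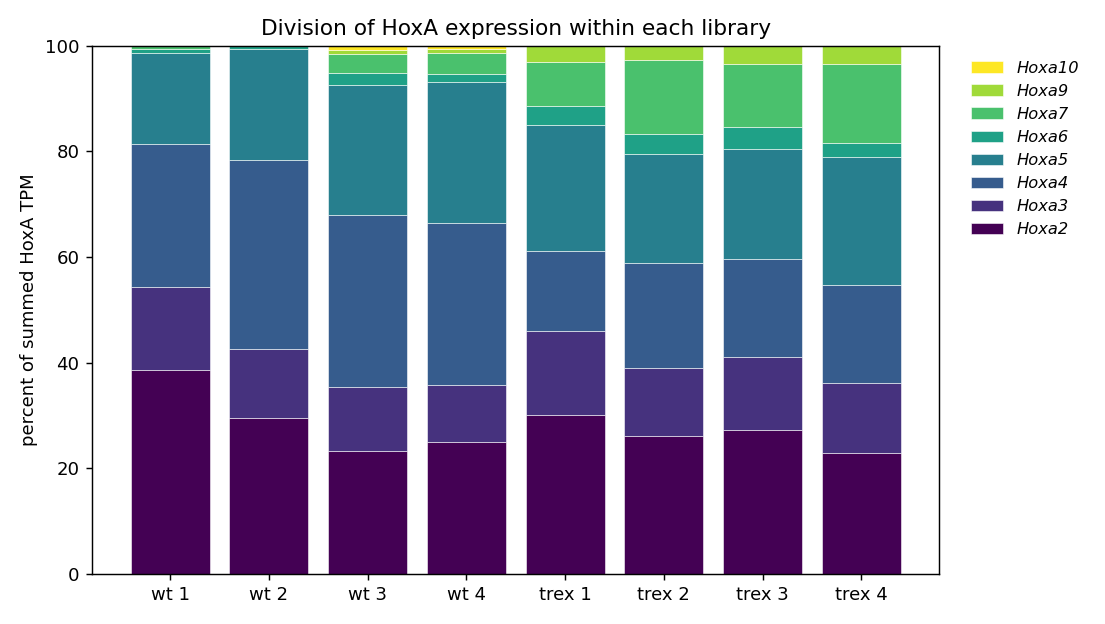
Share of the summed HoxA TPM taken by each gene, in percent, 1 stacked bar per library. Hoxa6 to Hoxa10 take between 15.1 and 21.0% in trex and between 0.512 and 7.47% in wt, and Hoxa4 takes a larger share in every wt library.

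Across the 8 libraries, Hoxa6, Hoxa7 and Hoxa9 had similar patterns, with Pearson r of log2(TPM + 1) of 0.94 for Hoxa6 and Hoxa7, 0.93 for Hoxa6 and Hoxa9 and 0.96 for Hoxa7 and Hoxa9. Hoxa9 and its neighbour Hoxa10 had r = -0.15, and Hoxa4 and Hoxa9 had r = -0.8. These values describe 8 libraries that fall into groups, and they share the difference between the groups. Among 13138 named genes, those most like Hoxa7 were Hoxd8 (r = 0.99), Hoxc6 (0.979) and Hoxb9 (0.977), all Hox genes of other clusters. Those most like Hoxa9 were Lgi2 (0.995), Copg1 (0.995) and Hoxc6 (0.993), and those most like Hoxa4 were Chrng (0.981), Ubap1 (0.979) and H2afy (0.977). Hoxa6 was most like Ipo5 (0.964), Vcpkmt (0.957) and Hoxd8 (0.95). Hoxa10 was most like Gcg (0.969), the gene of the hormone glucagon, Slc38a5 (0.968) and Tbx15 (0.966). The genes most like Hoxa2 were Ppm1l (0.971), Sox11 (0.963) and Brd9 (0.959), and those most like Hoxa3 were Blcap (0.938), Rbm12b1 (0.935) and Cep126 (0.928). Hoxa5 had lower values with its most similar genes, Zfp786 (0.886), Emx2 (0.874) and Vps18 (0.847).

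Beyond Hoxa10, Hoxa11 had 0.0758, 1.06, 1.4 and 0.372 TPM in trex 1 to 4 and 0.161, 0, 4.42 and 2.78 TPM in wt 1 to 4. As for Hoxa10, the highest values were in wt 3 and wt 4, and the groups overlap (log2 difference -0.43, adjusted p = 0.639). Hoxa13, the last gene of the cluster, was listed at 0 in every library. Among 25 non-coding genes annotated from Hotairm1 to Evx1, 16 were listed at 0 in every library and 7 were tested. None of the 7 was called by limma, 2 had an unadjusted p below 0.05, and none was called by limma-voom on recovered reads. Of these, Gm15050, which lies inside the Hoxa3 gene body, had 35.2, 29.0, 28.0 and 26.5 TPM in trex 1 to 4 and 47.3, 54.3, 35.4 and 31.5 TPM in wt 1 to 4 (log2 difference -0.47, adjusted p = 0.114).

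Halr1, a long non-coding RNA gene on the 3′ side of the cluster, was chosen after its values were seen. It had 5.3, 8.68, 8.46 and 4.86 TPM in trex 1 to 4 and 20.3, 19.1, 16.1 and 17.0 TPM in wt 1 to 4. No trex library reached the wt range, and the log2 difference was -1.32 (SE 0.18, limma adjusted p = 0.00777). Of the coding genes that flank the cluster, Skap2 had a log2 difference of -0.32 (adjusted p = 0.0681), and Snx10, Hibadh, Tax1bp1 and Jazf1 had adjusted p between 0.432 and 0.777.

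The Hox genes of clusters B, C and D were read by paralogue group, the number a gene carries, and compared with HoxA. The shares over all tested genes were 3.77% called lower and 4.94% called higher. In groups 1 to 5, 5 of 10 genes were lower, none was higher and 5 were not called. Those lower were Hoxb1 (log2 difference -0.70), Hoxb3 (-0.56), Hoxb4 (-0.41), Hoxd4 (-0.42) and Hoxb5 (-0.64), so Hoxb4 and Hoxd4, of the same paralogue group as Hoxa4, were called too. Unlike that of Hoxa4, the call of Hoxb4 was lost without trex 4, wt 1, wt 2 or wt 3 (adjusted p 0.0112 to 0.0937 over the 8 fits that leave out 1 library). That of Hoxd4 was lost without trex 3, trex 4, wt 1, wt 2 or wt 3 (0.0247 to 0.0853). The fourth gene of that group, Hoxc4, had a log2 difference of -0.47 and was not called (adjusted p = 0.0618). Also not called in groups 1 to 5 were Hoxb2 (-0.1), Hoxd3 (-0.18), Hoxc5 (-0.4) and Hoxd1. Hoxd1 went the other way, with a log2 difference of 0.61 (limma adjusted p = 0.11). In groups 6 to 9, 8 of 9 genes were tested and 4 were higher, namely Hoxc6 (2.66), Hoxb7 (1.11), Hoxc8 (4.10) and Hoxb9 (2.99). Hoxc8, like Hoxa9, reached the tested level only through its trex mean (22.6 TPM, against 0.396 TPM in wt). The call of Hoxb9 was lost without trex 1, trex 3, trex 4, wt 1 or wt 3 (0.0326 to 0.0878), and that of Hoxc6 without trex 4 (0.0504). The 4 not called were Hoxb6 (0.14), Hoxb8 (0.47), Hoxd8 (1.94) and Hoxd9 (2.36). The median log2 difference of all 8 tested genes of groups 6 to 9 was 2.15, with values from 0.14 to 4.10. For Hoxa6, Hoxa7 and Hoxa9 the median was 2.13, the value of Hoxa9 itself. Each set holds a gene tested only through its trex mean (Hoxc8 and Hoxa9), so the medians do not show that the clusters changed alike. In groups 10 to 13, 1 of 9 genes was tested, Hoxd10, with 0.286, 0.957, 2.6 and 0.469 TPM in trex 1 to 4 and 0, 0, 3.4 and 1.52 TPM in wt 1 to 4 (adjusted p = 0.945).

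**Figure D4:**
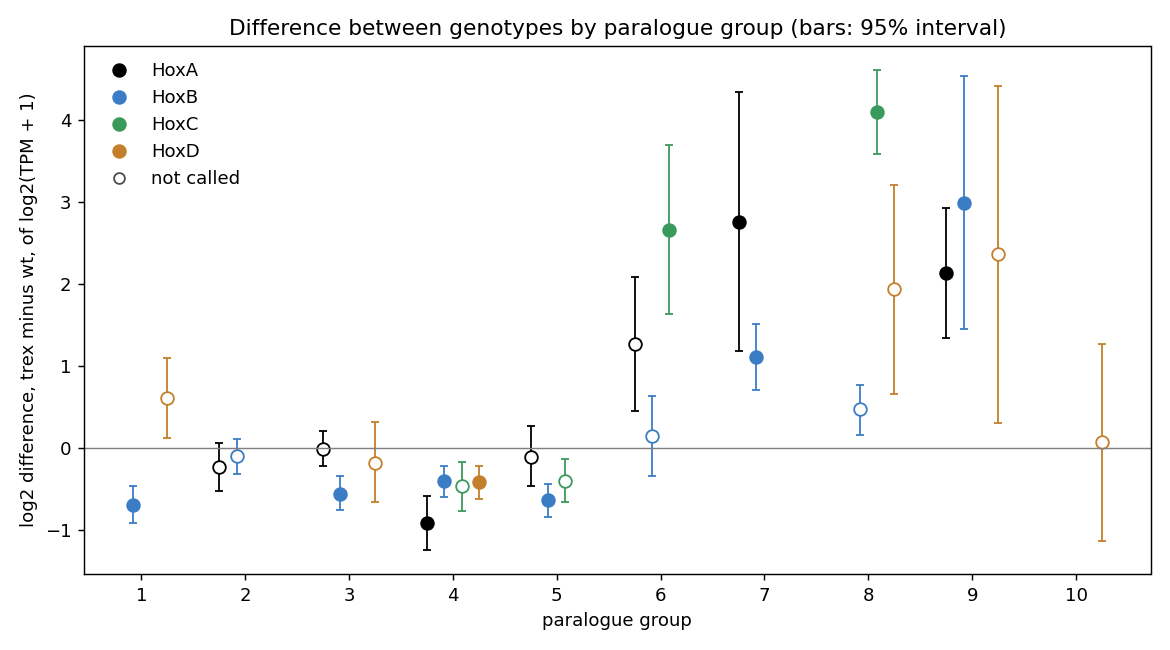
Log2 difference (trex minus wt, on log2(TPM + 1)) of the tested Hox genes by paralogue group, with 95% intervals and one colour per cluster. Called genes of groups 1 to 5 lie below 0 and called genes of groups 6 to 9 lie above 0.

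Among listed regulators of Hox genes, the retinoic acid axis had 2 of 14 genes higher and 4 lower. Over all tested genes, 4.94% were called higher and 3.77% lower. Rarb, a receptor gene that is itself induced by retinoic acid, had 25.3 TPM in trex and 54.9 TPM in wt (adjusted p = 0.00777), and Dhrs3, which reduces retinal, had 2.48 and 8.26 TPM (adjusted p = 0.0093). Crabp2, which binds retinoic acid, was lower too. Aldh1a2, which makes retinoic acid from retinal, had 318 TPM in trex and 216 TPM in wt (adjusted p = 0.0436), a call lost in 17 of 23 alternatives and without any one library but trex 1 (0.0471 to 0.131). Of the caudal factors, Cdx1, which switches on central Hox genes, had 4.03 ± 0.0454 TPM in trex and 9.32 ± 3.3 TPM in wt (adjusted p = 0.0292), and Wnt3a had 18.7 and 9.94 TPM (adjusted p = 0.0432). The Cdx1 call was lost without trex 3, trex 4, wt 2, wt 3 or wt 4 (0.0267 to 0.0789), and the Wnt3a call without any one library but trex 1 and trex 2 (0.0268 to 0.13). Cdx2, with 2.3 TPM in trex and 1.01 TPM in wt, missed the threshold (adjusted p = 0.305), as did Gdf11 and Fgf8, and 1 of the 6 listed was not tested. Of 9 Hox cofactors, 2 were lower and none was higher, and Pbx2 had 301 TPM in trex and 337 TPM in wt (adjusted p = 0.0469, lost without any one library but trex 1 and trex 2, 0.041 to 0.148). Of 11 chromatin regulators of Hox clusters, Kdm6b, a demethylase of the Polycomb mark, had 106 TPM in trex and 77.4 TPM in wt (adjusted p = 0.0435), and the remaining 10 were not called. That share, 1 of 11, is near the 8.71% called over all tested genes. The Kdm6b call was lost in 14 of 23 alternatives and without any one library but trex 2 (0.00738 to 0.11).

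In bulk tissue, fewer cells of a type and less RNA per cell cannot be told apart, and the libraries differed in markers of other tissues. The mean log2(TPM + 1) of 17 liver and yolk sac endoderm markers, none of them at 0 in all libraries, was 0.81, 1.38, 2.93 and 3.85 in trex 1 to 4 and 0.75, 0.62, 2.65 and 2.63 in wt 1 to 4. None of the 13 tested liver markers was called by limma, none had an unadjusted p below 0.05 and limma-voom called none. In wt, the low pair of Hoxa6, Hoxa7, Hoxa9 and Hoxa10 (wt 1 and wt 2) was also the low pair of liver markers. In trex, Hoxa9 differed by less than 1 TPM between libraries of low and high liver marker level. With this level as a covariate, the log2 differences were -0.94 for Hoxa4 (adjusted p = 0.0207), 2.39 for Hoxa7 (0.0455) and 1.95 for Hoxa9 (0.0156).

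**Figure D5:**
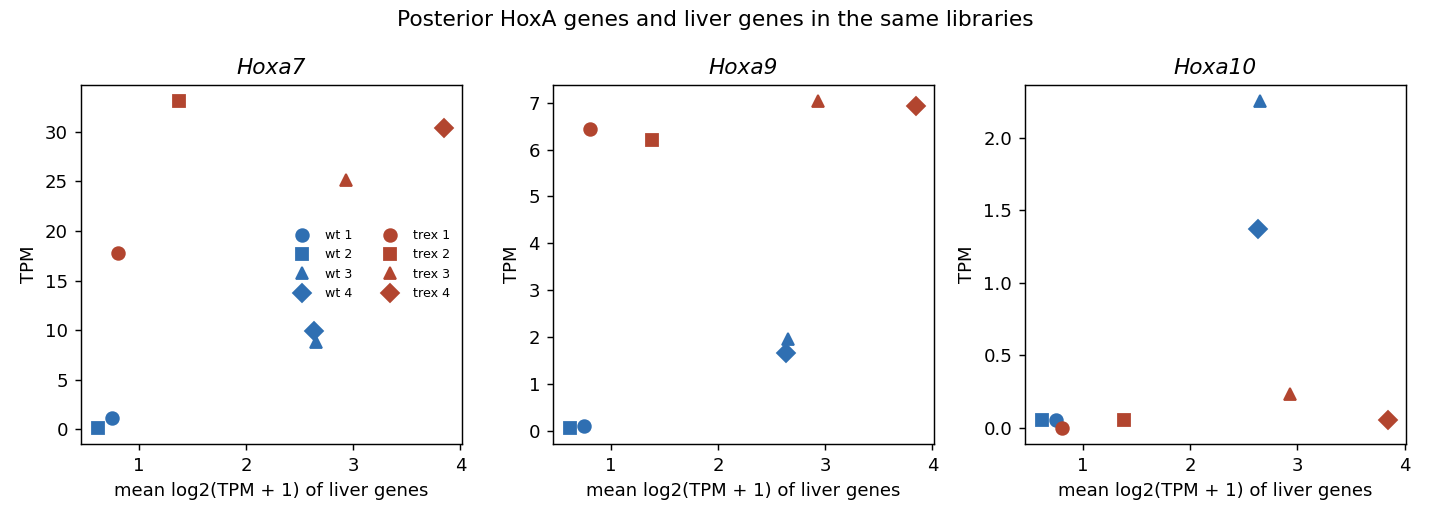
Level of Hoxa7, Hoxa9 and Hoxa10 (TPM) against the mean log2(TPM + 1) of liver markers, 1 point per library. In wt the 2 libraries of higher liver level hold the higher Hox values; the trex libraries hold Hoxa7 and Hoxa9 above them at every liver level and Hoxa10 near 0.

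Other marker lists were read in the same libraries, beside the 4.94% called higher and 3.77% called lower over all tested genes. Of 12 genes of differentiating neurons, 10 were lower in trex, and their mean log2(TPM + 1) was 2.94 to 4.23 in trex and 5.09 to 5.84 in wt. Of 14 neural tube progenitor genes, 5 were lower and none was higher. Of 10 forelimb and lateral plate mesoderm genes, 3 were higher (Hand1, Hand2 and Pitx1), with a mean of 3.47 to 4.45 in trex and 3.27 to 3.88 in wt. Pitx1 reached the tested level only through its trex mean (2.28 TPM, against 0.279 TPM in wt). The 7 not called had log2 differences from -0.62 (Foxf1) to 0.83 (Fgf10), with Tbx5 at 0.19 (limma adjusted p = 0.718). Of 9 tested caudal axial progenitor genes, Wnt3a was higher, Cdx1 was lower and 5 had an unadjusted p below 0.05, while the mean over the 12 listed was 2.31 to 2.69 in trex and 2.26 to 2.52 in wt. Members of this list went both ways: T (adjusted p = 0.058) and Tbx6 (0.0658) were above the wt range in every trex library but missed the threshold, and Gdf11 was below it in every trex library (0.11). Among somite genes 2 of 10 tested were higher and none lower, and among 6 hindbrain segment genes 2 were higher and 1 lower. The hindbrain mean was 3.14 to 4.3 in trex, highest in trex 1, and 3.09 to 3.12 in wt. Its member Egr2 had 15.9, 0.0511, 4.27 and 0.902 TPM in trex 1 to 4 and 0.152 to 0.325 TPM in wt (limma adjusted p = 0.194). None of 10 cardiomyocyte or 8 primitive erythroid genes was called by limma or limma-voom, and none had an unadjusted p below 0.05. Their levels varied widely within groups. The cardiomyocyte mean was 3.59 to 6.62 in trex and 3.52 to 6.49 in wt, and the erythroid mean 5.44 to 7.68 and 6.66 to 7.69. The lack of calls therefore does not show that the libraries held equal amounts of heart or blood. The part of these tissues in the HoxA differences was not tested.

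Rdh10 itself had 106, 66.2, 62.7 and 69.0 TPM in trex 1 to 4 and 41.0, 36.3, 40.3 and 37.6 TPM in wt 1 to 4, and was higher in trex (log2 difference 0.92, adjusted p = 0.0126; 0.0546 without wt 2). A transcript level does not check the allele. Recovered reads, the whole reads that the low TPM values stand for, came to between 20928981 and 23648646 per library. Y-linked transcripts were present in wt 2 and wt 3 alone (162 and 158 TPM, against at most 0.0662 TPM elsewhere), so sex and genotype are partly confounded. In the 6 other libraries the log2 differences were -0.73 for Hoxa4 (adjusted p = 0.197), 2.5 for Hoxa7 (0.219) and 2.16 for Hoxa9 (0.128), with the direction kept and no call. Halr1 was not called there either (adjusted p = 0.164).

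Some HoxA exons overlap other annotated exons, and the strand setting of the read counting is not given in the sources used here. Of Hoxa7 exonic bases, 20.4% lie opposite Hoxaas3, whose own mean was 7.42 TPM in trex and 7.54 TPM in wt. Of Hoxa4 exonic bases, 16.0% lie opposite Gm29430, and of Hoxa3 exonic bases, 25.4% lie opposite other genes. Without strand, reads of these genes and of their opposite partners cannot be told apart. Of Hoxa2 exonic bases, 15.0% are shared with Gm28308 on the same strand, which was listed at 0 throughout. The exons of Hoxa5, Hoxa6 and Hoxa10 overlap no other gene.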

How the data were processed

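Poly-A selected, stranded RNA-seq libraries were deposited as 1 TPM table; the authors used STAR, the mm10 build and CASAVA 1.8.2, per the submitters' processing notes. The sources used here do not name the read counter, its strand setting or the annotation release. Symbols, coordinates and exonic lengths came from GENCODE M21 (55240 of 55421 identifiers matched). Genes with a mean of at least 1 TPM were tested with limma 3.58.1 in R 4.3.3 (eBayes with a trend) on log2(TPM + 1), genotype as the only term, Benjamini-Hochberg adjusted, called at an adjusted p below 0.05. That scale understates the change of genes with low TPM, and a fold is a ratio of 2 mean TPM values. Between 98.74% and 98.87% of low values were whole multiples of 1 read within 0.001 read, so reads were recovered. Recovered reads gave the depth and the read counts stated for Hoxa7, Hoxa9 and Hoxa10. The Hoxa10 limit in trex 1 and the intervals of the Hoxa9 to Hoxa10 ratio rest on them, as does the limma-voom alternative. The main limma fit did not use them. The limma fit was tested on simulated data, and the recovery of reads was not.

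The 8 HoxA genes and the marker and regulator lists were chosen with earlier results of these data known. Named genes were the HoxA genes, the rest of the cluster and its flanks, HoxB to HoxD genes, the 3 genes most correlated with each HoxA gene, Rdh10 and list members; some genes this rule took are not reported here. Alternatives covered pseudocounts, filters, scalings, weights, covariates, the replicate block and leaving out each library; 1 was added after seeing the data, the 6 libraries low in Y-linked transcripts. Replicate numbers, taken from the replicate label, did not pair the libraries (r of same-numbered deviations -0.023 to 0.252).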

Additional observations from a re-analysis of the deposited data

Results flagged for a closer look

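In 5 of 44 sets of 4 libraries, 1 library stood further from the others than Dixon's 95% limit allows, and chance gives about 1 in 20 sets. None was a HoxA gene. Within the cluster, trex 1 was high for Hotairm1 (29.1 TPM, the other trex libraries 14.5 to 16.9), Hoxaas2 (76.8 TPM, against 20.7 to 29.9) and 5730596B20Rik (8.42 TPM, against 4.67 to 5.08). Rdh10 was high in trex 1 too (106 TPM, against 62.7 to 69.0), and Skap2 was low in wt 1 (18.0 TPM, against 20.8 to 21.3).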

How the results depend on the processing

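Over 23 alternatives Hoxa4 kept its call in 21 (log2 difference -1.04 to -0.73) and Hoxa9 in 20 of the 22 that tested it (0.98 to 3.91), while Hoxa7 kept its call in 9 (1.8 to 3.64); no direction of these 3 turned. The number of genes called was 1369, 694 with no filter on low values, 5524 with library weights, 687 with the replicate block, 39 with sex as a covariate and 8 in the 6 libraries low in Y-linked transcripts, and from 201 to 2911 with 1 library left out. With the replicate block Hoxa4 and Hoxa9 were called (adjusted p = 0.00593 and 0.0269) and Hoxa7 was not (0.0574); the numbers do not pair the libraries, and not every library correlated best with its own number. The number of HoxA genes called by limma was 0 with sex as a covariate and 0 in the 6 libraries, where 4 had an unadjusted p below 0.05 in each; limma-voom on recovered reads of all 8 libraries called 3. The split of 777 higher and 592 lower became 633 and 739 with quantile normalization and 643 and 820 with limma-voom, which moved the median of all genes from 0.04 to -0.01. A mean of at least 5 TPM dropped Hoxa9 from the test. Depth limits Hoxa10, with at most 43 reads in a library.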
